A study of Mus musculus with 4 samples.

Results

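The conjugation enzymes of the Ugt, Gst and Sult families were placed in the topologically associating domains (TADs) of a mouse hepatocyte line kept in 2D or in 3D culture. The members are all autosomal protein-coding genes of the mouse annotation whose symbols begin with Ugt1a, Ugt2, Ugt3, Gsta, Gstm, Gstt, Gstp, Gsto or Sult. They number 62 of 20807 autosomal protein-coding genes and lie on 11 chromosomes. Members on 1 chromosome whose neighbouring starts lie within 500 kb of each other were joined, which gave 11 clusters with 55 members. The other 7 members, Gsta3, Sult6b2, Sult2b1, Sult1a1, Sult5a1, Sult4a1 and Sult6b1, stand alone.

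These enzymes attach polar groups to drugs, hormones, bilirubin and reactive chemicals so that the products can leave the cell, and hepatocytes are a main site of this work. UDP-glucuronosyltransferases (Ugt) transfer glucuronic acid from UDP-glucuronic acid, glutathione S-transferases (Gst) couple electrophiles to glutathione, and cytosolic sulfotransferases (Sult) move sulfate from the donor PAPS. Many of the genes arose by repeated local duplication and sit in arrays of similar copies. TADs are stretches of a chromosome whose sequence contacts itself more often than it contacts the flanking stretches, and a TAD border is the position where such a stretch starts or ends.

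TADs were measured by in situ Hi-C, which ligates and sequences DNA ends that lie close together in fixed nuclei. AML12, an immortalized hepatocyte line from mouse liver, was grown either on plain dishes (2D) or embedded in Matrigel (3D), with 2 samples per culture and 4 in all. Both cultures carried the same line and were held at the G1/S boundary with 1 mM hydroxyurea. The drug was given for 24 h to the 2D cultures but for 36 h to the 3D cultures, so its duration cannot be told apart from the growth dimension. The 2 samples of a culture were combined before TADs were called, so there is 1 list of TAD positions per culture, no spread between replicates and no test of a difference between the cultures.

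The 2D list has 4221 autosomal TADs and the 3D list 4094, all on a grid of 40 kb, and the shortest TAD of each list measures 120 kb. A list gives positions only. The read depth at a given TAD can therefore not be stated, and neither expression of these enzymes nor hepatocyte markers can be read from it. Below, a gene belongs to the TAD that holds its transcription start, TADs or borders are called shared when their ends lie within 40 kb of each other in both lists, and stretches in no TAD are called unassigned. Ranges in brackets are 95% Wilson intervals where they follow a percentage and 95% intervals by order statistics where they follow a median. Both cover counting error only and treat members as separate although members of an array share TADs.

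Most conjugation genes lay inside TADs in both cultures, but a smaller share of them than of all genes kept the same TAD. In 2D, 52 of the 62 members (83.9%, 72.8 to 91) started inside a TAD, against 77.3% of all autosomal coding genes. In 3D, 56 members (90.3%, 80.5 to 95.5) did so, against 84.1% of all genes. Both lists placed 50 members (80.6%, 69.1 to 88.6) in a TAD, against a background of 73.6%, and all 3 backgrounds lay within the members' intervals.

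The same TAD in both lists held 21 members (33.9%, 23.3 to 46.3), against 50.3% of all genes. A further 29 members (46.8%) lay in TADs of different extent in the 2 lists, against 23.2% of all genes. Only the 2D list placed 2 members in a TAD (3.23%, 0.889 to 11, background 3.73%), and only the 3D list placed 6 (9.68%, 4.51 to 19.5, background 10.5%). No TAD of either list held the remaining 4 members (6.45%, 2.54 to 15.4, background 12.2%).

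These counts rest on few loci. Of the 18 loci (11 clusters and 7 single genes), 6 kept the same TAD for every member and 6 had TADs of other extent for every member. Another 3 were unassigned in both lists, 1 was in a TAD in 2D only, and 2 were mixed, namely Ugt1a and the Gsta cluster of chromosome 9. Counted by TAD, 16 TADs of the 2D list held members and 7 of them (43.8%, 23.1 to 66.8) were shared, against 66.7% of all 2D TADs, a value at the upper edge of that interval. In the 3D list 17 TADs held members and 7 (41.2%, 21.6 to 64) were shared, against 68.8% of all. Both of these backgrounds cover every autosomal TAD, also those that hold no coding gene start. Among the 29 members in TADs of other extent, the TAD was longer in 3D for 13 (44.8%, 28.4 to 62.5) and shorter for 16 (55.2%), whereas it was longer in 3D for 66.5% of all such genes. Of the 16, 13 belong to the Ugt2 with Sult1 cluster and shared 1 TAD in 2D, so they are 1 locus and not separate cases. By locus, the TAD was longer in 3D for all members of Gstm, Gstt and Sult2b1, shorter for all of Ugt2 with Sult1 and of Sult3a, and longer for Sult1c2 but shorter for Sult1c1.

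**Figure D1:**
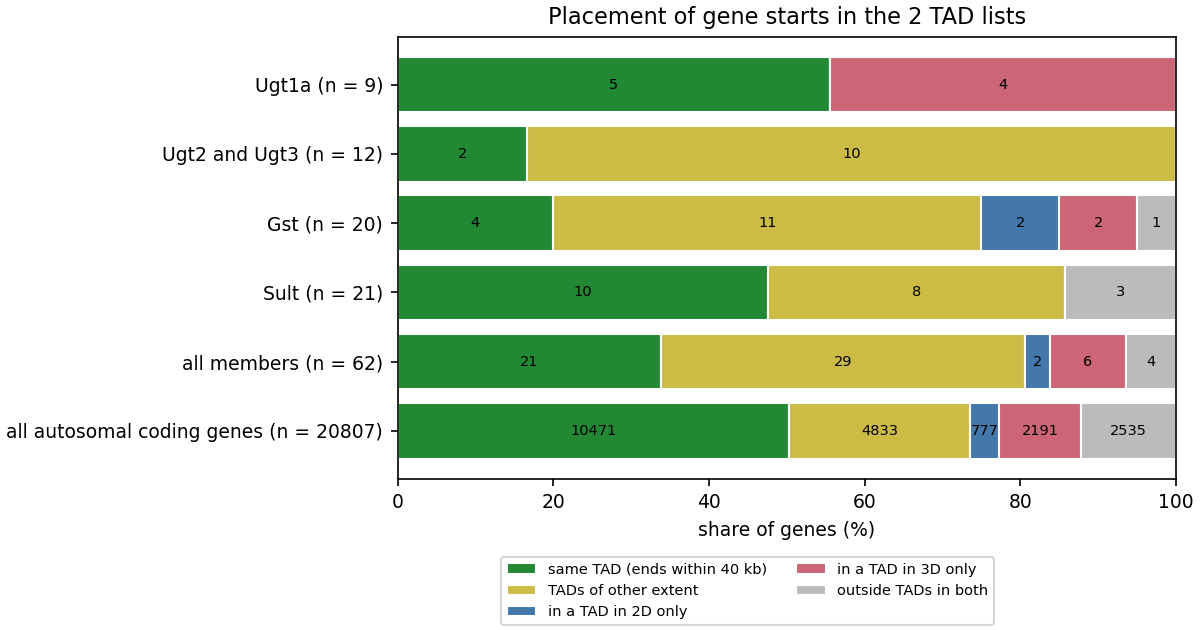
Share of genes (x axis, percent) in each placement for the Ugt1a, Ugt2 with Ugt3, Gst and Sult genes, all 62 members and all 20807 autosomal coding genes, with gene counts written in the bars. The same TAD held 21 members, and TADs of other extent held 29, mostly Ugt2 and Gst genes.

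By family, the placements were as follows, with no test of a difference, since the Ugt1a and the Ugt2 genes are 1 locus each. Over all autosomal coding genes, 50.3% kept their TAD, 23.2% lay in TADs of other extent and 10.5% were in a TAD in 3D only. Of the 9 Ugt1a genes, 5 kept their TAD and 4 were in a TAD in 3D only. All 10 Ugt2 genes lay in TADs of other extent, whereas both Ugt3 genes kept theirs. Among the 20 Gst genes, 4 kept their TAD, 11 lay in TADs of other extent, 2 were in a TAD in 2D only, 2 in 3D only and 1 in neither. Of the 21 Sult genes, 10 kept their TAD, 8 lay in TADs of other extent and 3 were in no TAD of either list.

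Neighbouring conjugation genes mostly shared a TAD. Of 44 neighbouring pairs within the clusters, 36 (81.8%, 68 to 90.5) had both starts in 1 TAD in 2D, against 58.9% of all neighbouring coding genes at most 500 kb apart. In 3D, 39 pairs (88.6%, 76 to 95) did so, against 66.3% of all. Every pair of the Ugt2 with Sult1 cluster (13 members) and of the Sult2a cluster (8 members) was together in 2D, each cluster in 1 TAD. In 3D all of these pairs but Ugt2b5 with Ugt2b37 were together. The many pairs of these clusters raise both shares above, and the shares without them were not computed. The 2 lists differed for 7 pairs (15.9%, 7.93 to 29.4), close to the background of 16.5%. In the annotation, 38 of the 44 pairs (86.4%, 73.3 to 93.6) are read from the same strand, against 52.4% of all pairs, as is usual for tandem arrays.

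Of the 7 pairs whose placement differed, 5 were together in 3D only: Ugt1a6b with Ugt1a6a, Ugt1a5 with Ugt1a2, Ugt1a2 with Ugt1a1, Gstm5 with Gstm7, and Sult1c2 with Sult1c1. The 2 pairs that were together in 2D only were Ugt2b5 with Ugt2b37, and Gsto1 with Gsto2. A border stood between the starts of 4 of the 7 pairs, in the list where they were apart. The other 3, Ugt1a5 with Ugt1a2, Ugt1a2 with Ugt1a1, and Gsto1 with Gsto2, lay in the same unassigned stretch in that list. A further 34 pairs were together in both lists and 3 in neither, these being Ugt1a6a with Ugt1a5, Gsta4 with Gsta1, and Gsta1 with Gsta2.

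The 2D list had 3 borders between the first and the last gene start of a cluster and the 3D list had 4, and 8 of the 11 clusters had no border inside in each list. Of these 8, 7 lay wholly in 1 TAD, and the members of the other one lay in no TAD, namely the Gsta cluster of chromosome 9 in 2D and the Gsto cluster in 3D. Stretches of like length elsewhere were not counted, so these counts have no background. In each list 1 of these borders was shared, the one in the Ugt1a cluster. Where only positions at which 2 TADs meet counted, each list had 2 borders inside clusters. No border inside a cluster was shared at 0 kb, and within 80 kb 2 of the 3D list were. The gene body of 5 members (8.06%, 3.49 to 17.5) held a border in 2D, against 15% of all genes, and that of 7 members (11.3%, 5.58 to 21.5) in 3D, against 13.9%. All 5 of these genes in 2D and 6 of the 7 in 3D were overlapping Ugt1a genes crossed by 1 border, and the remaining gene in 3D was Gsta4.

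**Figure D2:**
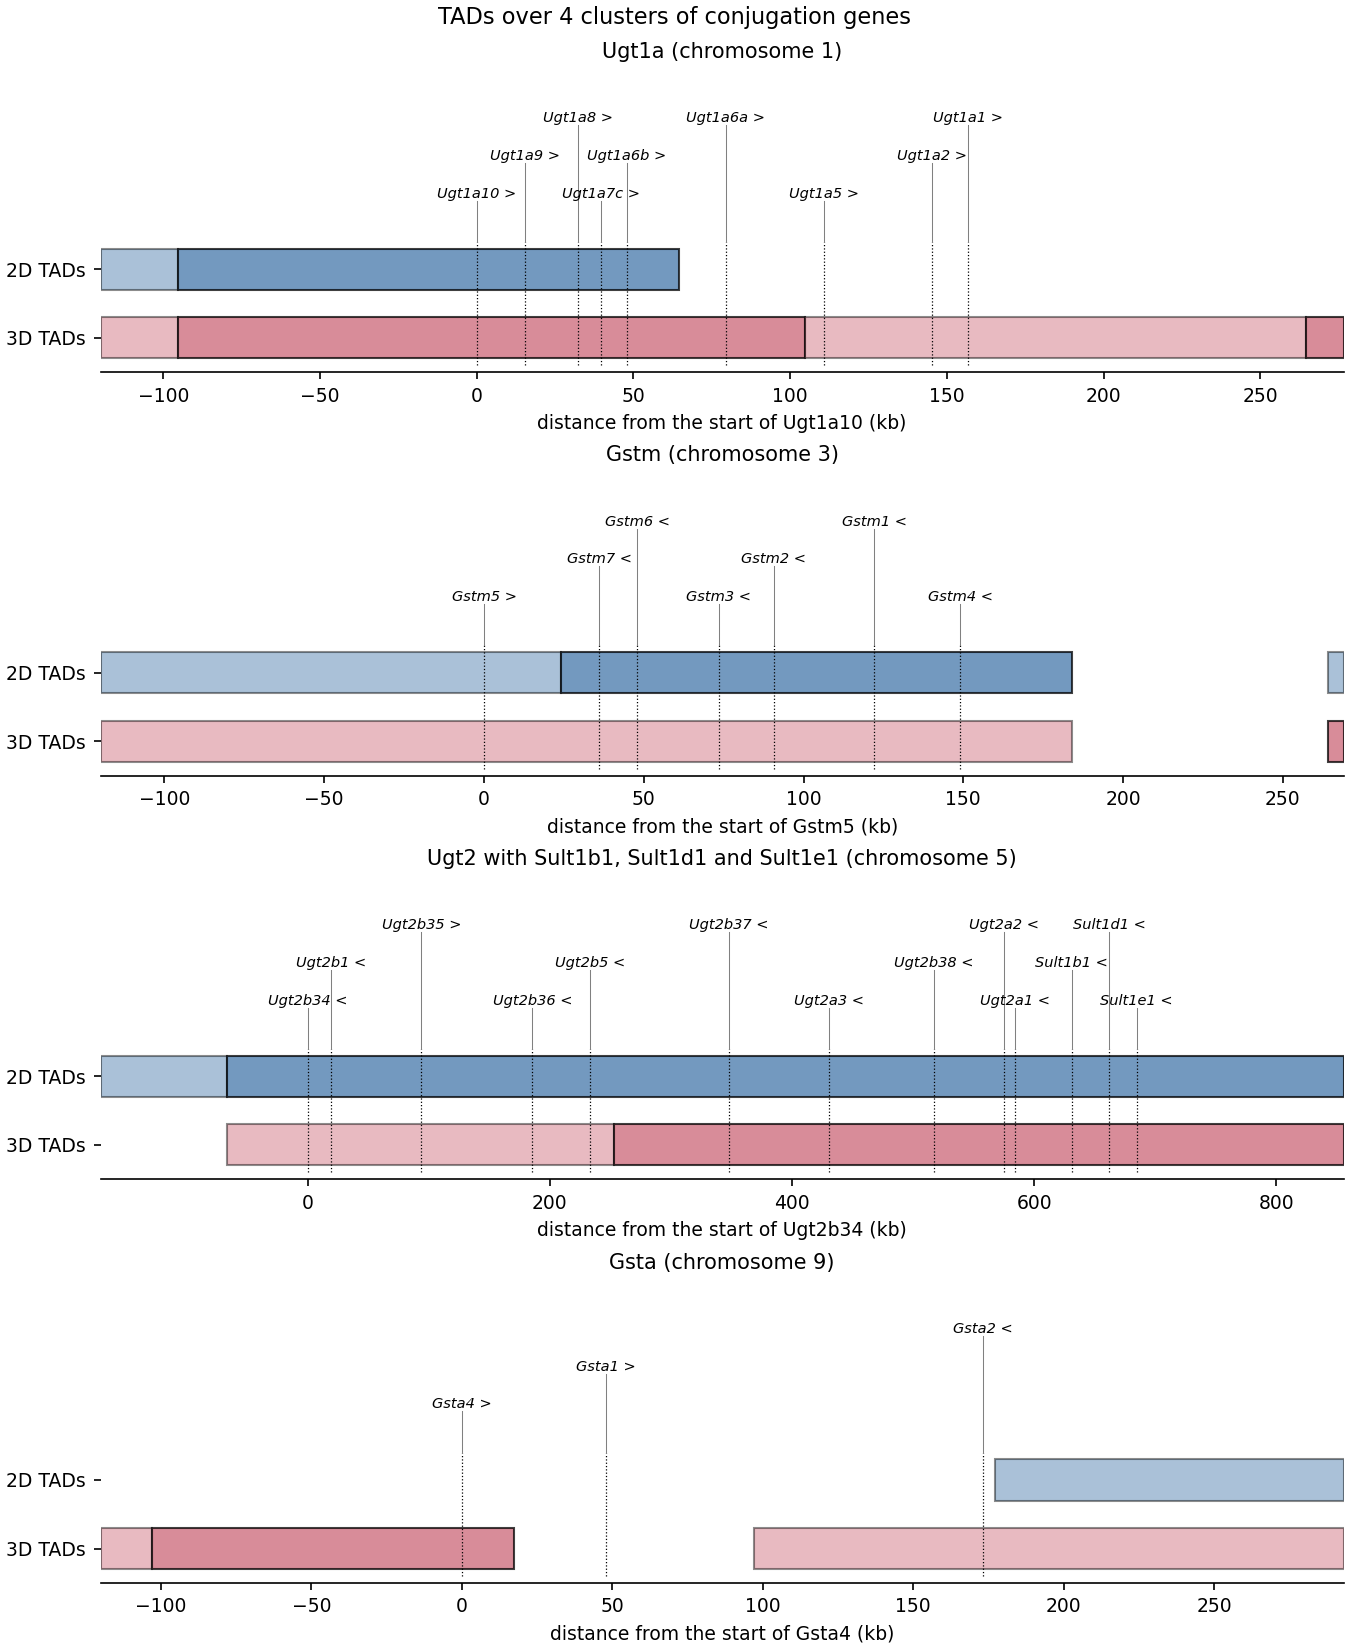
TADs of the 2D list (blue) and 3D list (red) over 4 clusters, with the x axis in kb from the first gene start, neighbouring TADs in alternating shades, gaps for unassigned stretches and arrowheads for the strand of each gene. A border splits the Ugt1a cluster in both lists, the Gstm cluster in 2D only and the Ugt2 cluster in 3D only, and the Gsta genes lie in no TAD in 2D.

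The Ugt1a cluster (chr1:88055388-88220002, GRCm38, plus strand) codes for the enzymes that glucuronidate bilirubin, phenols and many drugs. Its 9 genes, Ugt1a10, Ugt1a9, Ugt1a8, Ugt1a7c, Ugt1a6b, Ugt1a6a, Ugt1a5, Ugt1a2 and Ugt1a1, each have a first exon of their own and splice it to the same downstream exons. In the annotation exons 2, 3 and 4 have identical positions in all 9 genes and measure 132, 88 and 220 bases.

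Both lists had a border inside the Ugt1a cluster, 40 kb apart. In 2D a TAD of 160 kb (chr1:87960001-88120000) held the starts of the 5 upstream members, Ugt1a10 to Ugt1a6b, with the deubiquitinase gene Usp40. The next 240 kb (chr1:88120001-88360000) were unassigned and held the starts of Ugt1a6a, Ugt1a5, Ugt1a2 and Ugt1a1. In 3D a TAD of 200 kb (chr1:87960001-88160000) held 6 members, with Ugt1a6a added, and met a TAD of 160 kb (chr1:88160001-88320000) that held Ugt1a5, Ugt1a2 and Ugt1a1. Ugt1a1, the bilirubin-conjugating enzyme, was thus in a TAD in 3D only, together with the nearby genes Dnajb3, Mroh2a, Hjurp and Trpm8.

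The border stood between the first exon and exon 2 for 5 genes in 2D, 95 kb before exon 2, and for 6 genes in 3D, 55 kb before exon 2. The distance from the first exon to exon 2 ranges from 158.7 kb for Ugt1a10 to 2.2 kb for Ugt1a1. Both exons lay in 1 TAD for no gene in 2D and for Ugt1a5, Ugt1a2 and Ugt1a1 in 3D. The first exon of Ugt1a6a, which conjugates small phenols, lies 75.7 kb from exon 2, was unassigned in 2D and lay in the upstream TAD in 3D.

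The copies of an array resemble each other, and Hi-C reads can be placed only where their sequence is found once. The share of positions whose 30-mer occurs once in the genome was therefore computed for every locus, 30 bases being the first length at which reads were mapped, and reads that failed were mapped again at greater lengths. The share was 69.7% over the Ugt1a cluster, and 62.4% and 68% within 40 kb of its 2D and 3D border. Evenly spaced bins of the autosomes had a median of 89.8%, with quartiles of 78.7% and 94.3% over 596 bins. The part that repeated sequence has in any border or unassigned stretch was not tested.

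The cluster with the most members joins Ugt2 and Sult1 genes (chr5:86889767-87591594). It holds 13 members, the steroid, bile acid and drug glucuronidating enzymes Ugt2b34, Ugt2b1, Ugt2b35, Ugt2b36, Ugt2b5, Ugt2b37 and Ugt2b38, their relatives Ugt2a1, Ugt2a2 and Ugt2a3, and the sulfotransferases Sult1b1, Sult1d1 and Sult1e1, of which Sult1e1 inactivates estrogens. In 2D all 13 starts lay in 1 TAD of 1720 kb (chr5:86840001-88560000) that held 35 coding gene starts in all. The other 22 included the milk casein genes Csn1s1, Csn2, Csn1s2a, Csn1s2b and Csn3 and the enamel genes Ambn, Enam and Amtn. In 3D a border at 87160000 divided this TAD, 320 kb from the nearest border of the 2D list. The TAD before it (chr5:86840001-87160000, 320 kb) held 5 Ugt2b genes, Ugt2b34 to Ugt2b5, and no other coding gene. The TAD after it (chr5:87160001-88520000, 1360 kb) held the other 8 members and 20 other genes, the caseins among them. A further 3D border at 88520000, beyond the cluster, placed the last 40 kb of the 2D TAD, with Jchain and Utp3, in the next 3D TAD of 160 kb.

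Ugt2b5 and Ugt2b37, read from the minus strand with starts 114.5 kb apart, are the neighbours on the 2 sides of that border. They lay in 1 TAD in 2D and in different TADs in 3D. The start of Ugt2b5 was 300.3 kb from the nearest 2D border but 19.7 kb from the nearest 3D border. For Ugt2b37 these distances were 414.8 kb and 94.8 kb. Their promoters, 300 bases around the RefSeq start (GRCm38.p6), are printed to show how alike the neighbours are. The capitals mark the longest run found in both, of 72 bases.

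Ugt2b5, chr5:87140291-87140590, minus strand: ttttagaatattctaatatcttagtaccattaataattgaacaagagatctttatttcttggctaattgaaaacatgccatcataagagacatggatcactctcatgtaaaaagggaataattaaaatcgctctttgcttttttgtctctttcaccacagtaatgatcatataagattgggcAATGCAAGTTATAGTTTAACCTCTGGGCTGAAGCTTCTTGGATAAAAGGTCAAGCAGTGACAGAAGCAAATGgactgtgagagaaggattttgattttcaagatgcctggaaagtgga
Ugt2b37, chr5:87254739-87255038, minus strand: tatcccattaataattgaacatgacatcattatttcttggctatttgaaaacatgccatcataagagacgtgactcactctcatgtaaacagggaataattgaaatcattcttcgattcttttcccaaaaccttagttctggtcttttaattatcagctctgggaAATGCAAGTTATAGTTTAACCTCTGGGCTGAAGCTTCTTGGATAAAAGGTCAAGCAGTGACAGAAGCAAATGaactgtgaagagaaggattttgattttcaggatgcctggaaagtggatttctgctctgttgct

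The Ugt2b5 and Ugt2b37 promoters were identical at 247 of 324 aligned columns (76.2%). Within 40 kb of the border between the genes 70.2% of 30-mers occur once, and over the whole cluster 71.5% do. Single genes ranged from 72.9% in Ugt2b38 to 98.9% in Sult1d1.

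Ugt3a1 and Ugt3a2, which use sugars other than glucuronic acid, lie at chr15:9276888-9370955. Both kept the same TAD of 1320 kb (chr15:9160001-10480000), shared with the prolactin receptor gene Prlr and the interleukin 7 receptor gene Il7r among 7 other genes. Their starts lay 116.9 and 175.6 kb from the nearest border in each list. At this locus 57.5% of the 30-mers occur once.

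The Gstm cluster (chr3:107895821-108044894) codes for the mu class of cytosolic glutathione S-transferases. Its 7 genes are Gstm5, Gstm7, Gstm6, Gstm3, Gstm2, Gstm1 and Gstm4, with Gstm5 on the plus strand and the other 6 on the minus strand. In 2D a border at 107920000 divided Gstm5 from the rest, 160 kb from the nearest 3D border. Gstm5 lay in a TAD of 280 kb (chr3:107640001-107920000) with Ahcyl1, the macrophage growth factor gene Csf1 and Eps8l3. The other 6 genes filled a TAD of 160 kb (chr3:107920001-108080000) that held no other coding gene start. In 3D all 7 lay in 1 TAD of 520 kb (chr3:107560001-108080000) with Ahcyl1, Csf1 and Eps8l3 again among the other genes, and this TAD also took in 80 kb that was unassigned in 2D.

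Gstm5 started 24.2 kb from its nearest border in 2D and 184.2 kb in 3D, and Gstm7 started 11.8 kb and 148.2 kb away. More of the sequence here occurs once than at the Ugt clusters. Within 40 kb of the 2D border 91.8% of 30-mers occur once, and the cluster as a whole stood at 86%. Gstm5 and Gstm7 are read toward each other, with the border between them, and their promoters were identical at 153 of 323 columns (47.4%). Capitals mark matches, on either strand, to the TATA box letters TATAAA, the antioxidant response element core TGACNNNGC and the xenobiotic response element core GCGTG, the binding letters of Nfe2l2 and of the Ahr complex in the last 2 cases.

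Gstm5, chr3:107895604-107895903, plus strand: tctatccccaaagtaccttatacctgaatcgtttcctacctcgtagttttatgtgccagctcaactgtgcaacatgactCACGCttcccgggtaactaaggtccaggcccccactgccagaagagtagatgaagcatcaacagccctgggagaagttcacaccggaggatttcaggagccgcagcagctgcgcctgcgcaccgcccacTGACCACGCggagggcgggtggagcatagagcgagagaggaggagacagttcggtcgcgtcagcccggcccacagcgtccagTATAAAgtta
Gstm7, chr3:107931768-107932067, minus strand: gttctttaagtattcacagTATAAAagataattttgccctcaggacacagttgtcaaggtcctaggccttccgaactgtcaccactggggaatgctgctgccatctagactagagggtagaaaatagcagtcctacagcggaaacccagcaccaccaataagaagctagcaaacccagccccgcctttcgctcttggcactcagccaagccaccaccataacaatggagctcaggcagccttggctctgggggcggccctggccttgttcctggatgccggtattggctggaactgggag

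The Gstm5 promoter held both response element cores, the antioxidant one at bases 209 to 217 of the 300 printed and xenobiotic ones at bases 80 to 84 and 213 to 217, the latter within the former. It also held the TATA letters at bases 291 to 296, after the start. The Gstm7 promoter held the TATA letters at bases 20 to 25 and neither core.

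A RefSeq promoter of 300 bases was found for 54 of the 62 members, 44 of them within 100 bases of the annotated start used here and the farthest 25057 bases away. The antioxidant core stood in 2 of these 54 promoters (3.7%), Gsta3 and Gstm5, against 12.4% of 32851 promoters in the table. The xenobiotic core stood in 10 (18.5%), against 32.4%, and TATAAA in 13 (24.1%), against 13.6%. GTTAAT, core letters of the site of the hepatocyte factor HNF1, stood in 14 (25.9%), against 7.1%. These were 6 of 19 Ugt promoters, among them Ugt1a1, Ugt1a9 and Ugt2a3, and 7 of 17 Sult promoters, among them Sult2a3. Only 1 of 18 Gst promoters, that of Gsta3, held these letters. Such matches describe the letters in these windows and nothing about binding, and promoters of copied genes are not separate observations.

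The Gsta cluster of chromosome 9 (chr9:78182774-78355788) codes for alpha class enzymes that act on lipid peroxidation products, Gsta4, Gsta1 and Gsta2. In 2D all 3 starts fell in 1 unassigned stretch of 320 kb (chr9:78040001-78360000). In 3D Gsta4 lay in a TAD of 120 kb (chr9:78080001-78200000) whose end fell inside the gene, Gsta2 lay in a TAD of 200 kb (chr9:78280001-78480000), and Gsta1 stayed in the unassigned 80 kb between them. This cluster had the lowest share of 30-mers found once, 49.9%, with 93.5% in Gsta4, 7.28% in Gsta1 and 57.1% in Gsta2. Within 40 kb of the TAD start at 78280000 the share was 27%, and within 40 kb of the TAD end at 78200000 it was 78.8%. Gsta3, the remaining Gsta member, stands alone on chromosome 1 with a share of 95.8% and kept its TAD of 1280 kb (chr1:21160001-22440000).

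**Figure D3:**
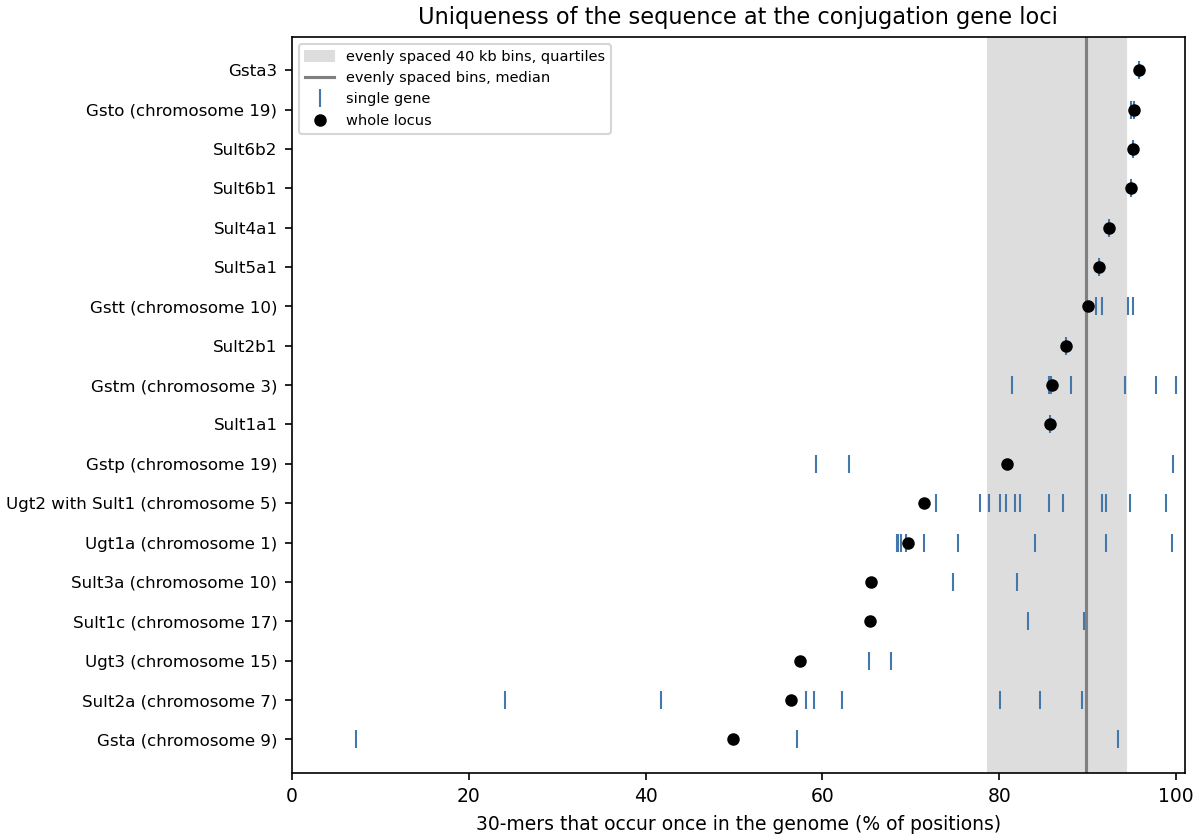
Share of positions whose 30-mer occurs once in the genome (x axis, percent) for each of the 18 loci (points) and their genes (ticks), with the median (line) and quartiles (band) of 596 evenly spaced bins of 40 kb. The Gsta cluster of chromosome 9 stands lowest at 49.9% and Gsta3 highest at 95.8%.

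The theta class genes Gstt3, Gstt1, Gstt4 and Gstt2 (chr10:75774115-75837424) stayed together in both lists. Their TAD was 160 kb in 2D (chr10:75720001-75880000) with 8 coding gene starts, among them the macrophage migration inhibitory factor gene Mif and its relative Ddt. It was 440 kb in 3D (chr10:75520001-75960000) with 19, the gamma-glutamyltransferase genes Ggt1 and Ggt5, which break down glutathione conjugates, among those added. The 3D TAD covered the 2D TAD, another 2D TAD of 120 kb and 2 unassigned stretches of 80 kb. The locus had 90.1% of 30-mers found once, close to the bin median.

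The pi class genes Gstp1, Gstp2 and Gstp3 (chr19:4035407-4059569) kept the same TAD of 320 kb (chr19:4000001-4320000), one dense in genes with 26 coding starts. The omega class genes Gsto1 and Gsto2 (chr19:47854970-47886324), which reduce dehydroascorbate and methylated arsenic, were the members found in a TAD in 2D only. Their 2D TAD measured 120 kb (chr19:47800001-47920000), the shortest size in the list, and held Cfap43 and Itprip as well. In 3D the 40 kb at its start belonged to a neighbouring TAD of 240 kb and the other 80 kb (chr19:47840001-47920000), with all 4 gene starts, were unassigned. At this locus 95.3% of 30-mers were found once.

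The Sult2a cluster (chr7:13623967-14494230), whose enzymes sulfate bile acids and the steroid DHEA, lay in the largest TAD of any member. All 8 genes, Sult2a5, Sult2a2, Sult2a1, Sult2a4, Sult2a3, Sult2a6, Sult2a8 and Sult2a7, shared a TAD of 2880 kb (chr7:13040001-15920000) with the same ends in both lists. The 22 other coding genes there included vomeronasal receptor genes (Vmn1r85 to Vmn1r90) and oocyte homeobox genes such as Obox1 and Obox6. Starts lay from 584 kb (Sult2a5) to 1425.8 kb (Sult2a7) from the nearest border in both lists. The share of 30-mers found once was 56.5% over the cluster, and it ranged from 24.1% in Sult2a2 to 89.4% in Sult2a7.

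The other paired sulfotransferase genes differed in extent between the lists. Sult3a2 and Sult3a1 (chr10:33766424-33879532) lay in a TAD of 2640 kb in 2D (chr10:31320001-33960000) and of 2520 kb in 3D (chr10:31440001-33960000), the 120 kb at its start forming a TAD of their own in the 3D list. Sult1c2 and Sult1c1 (chr17:53829637-53990674) were divided in 2D by a border at 53960000, 120 kb from the nearest 3D border. Sult1c2 then lay in a TAD of 280 kb (chr17:53680001-53960000) and Sult1c1 in one of 1920 kb (chr17:53960001-55880000). In 3D both lay in 1 TAD of 400 kb (chr17:53680001-54080000) with the cohesin protector gene Sgo1, and 3 further TADs covered the rest of the 1920 kb. The share of 30-mers found once was 65.5% over Sult3a, 65.4% over Sult1c and 70% within 40 kb of the border.

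Among the single sulfotransferase genes, Sult4a1, a brain form, kept a TAD of 600 kb (chr15:83600001-84200000), and Sult6b1 kept one of 120 kb in 2D (chr17:78800001-78920000) and 160 kb in 3D (chr17:78760001-78920000). Sult2b1, which sulfates cholesterol, lay in a TAD of 240 kb in 2D (chr7:45720001-45960000) and of 320 kb in 3D (chr7:45720001-46040000), a change of the end by 80 kb that added Abcc6 and Nomo1. Sult1a1, the main phenol sulfotransferase, was unassigned in both lists, in a stretch of 480 kb with 25 coding gene starts in 2D (chr7:126320001-126800000) and of 240 kb with 16 in 3D (chr7:126560001-126800000). Sult5a1 lay in the same unassigned 80 kb in both lists (chr8:123120001-123200000). Sult6b2 was unassigned in 2D (80 kb, chr6:142760001-142840000) and in 3D (320 kb, chr6:142760001-143080000). At these 3 loci 85.8%, 91.3% and 95.1% of 30-mers occur once, in the order Sult1a1, Sult5a1 and Sult6b2.

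**Figure D4:**
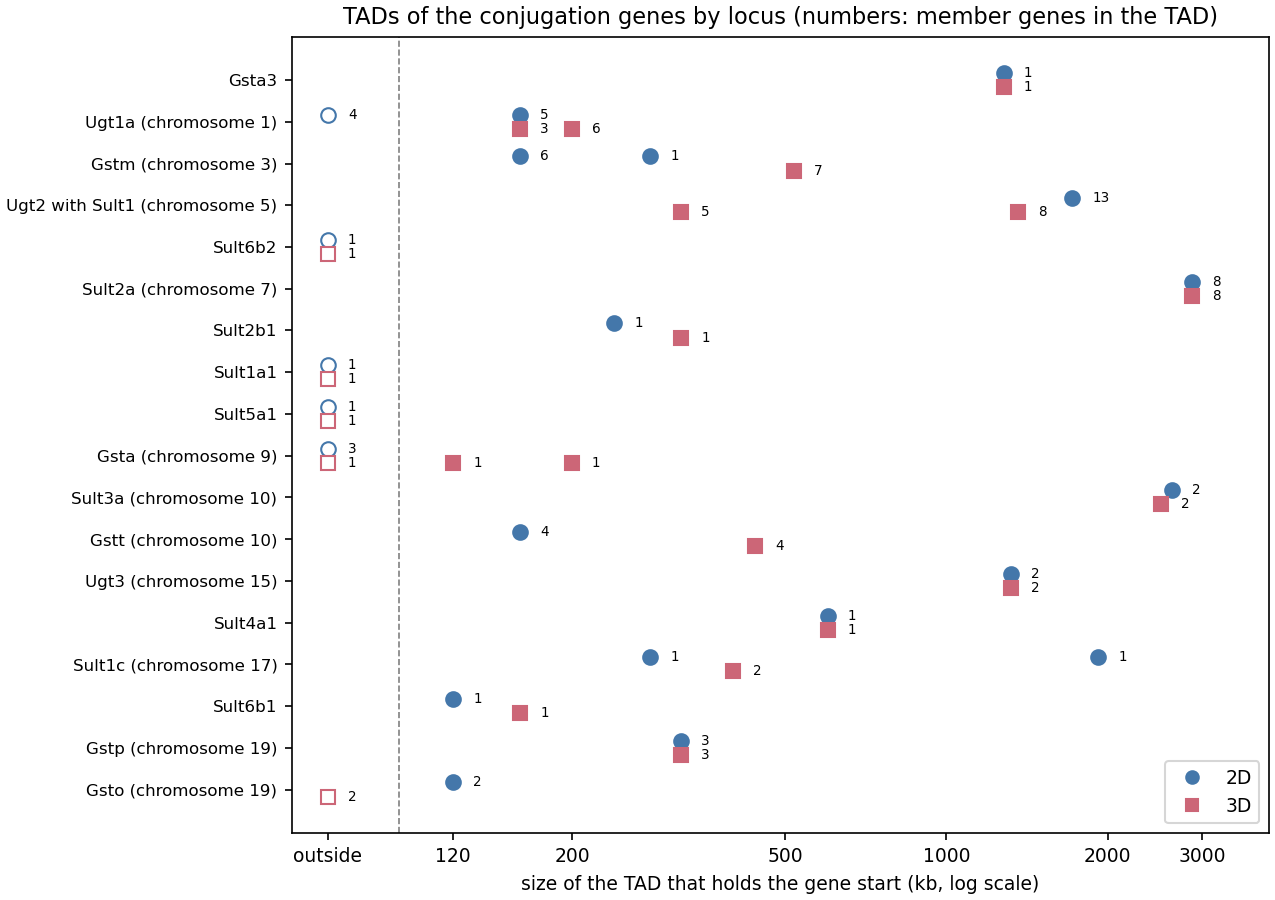
Size in kb (log scale) of the TADs that hold the members of each of the 18 loci in 2D (blue circles) and 3D (red squares), with the number of members in each TAD and open symbols at the left for members in no TAD. The Sult2a genes lie in the same TAD of 2880 kb in both lists, the Gstm and Gstt genes in longer TADs in 3D, and the Ugt2 with Sult1 genes in shorter ones.

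Counted per gene, the median size of a member's TAD was 1300 kb in 2D (95% interval by order statistics 240 to 1720) and 520 kb in 3D (320 to 1280), against 320 kb for all genes in each list, which lies within the 2D interval and at the lower end of the 3D interval. Counted once per TAD, the medians were 300 kb (2D) and 400 kb (3D), against 240 kb and 280 kb. The Ugt2 with Sult1 and the Sult2a clusters weighed on these medians, and without their 21 members the median per gene was 160 kb (2D) or 400 kb (3D).

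Member starts stood a median of 80.6 kb (59.6 to 129) from the nearest border in 2D and 95.1 kb (72.2 to 148) in 3D, against 52.9 kb and 58.1 kb for all genes. Where only positions at which 2 TADs meet counted as borders, the members' medians were 246 kb (2D) and 244 kb (3D). The medians of all genes by this definition were not computed, so these 2 values have no background. A border lay within 40 kb of 14 member starts (22.6%) in 2D and of 11 (17.7%) in 3D, against 41.6% and 38.9% of all. No start of the Ugt2 with Sult1 or the Sult2a cluster was that close in 2D, the nearest being Ugt2b34 at 66.9 kb. In 3D only Ugt2b5 was, at 19.7 kb. Without the same 2 clusters the median distance was 55 kb (2D) or 75.8 kb (3D).

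Of 30 other genes of the conjugation pathways, taken from a fixed list, 14 kept their TAD (46.7%, 30.2 to 63.9), against 50.3% of all autosomal coding genes. A further 11 lay in TADs of other extent (36.7%, 21.9 to 54.5, background 23.2%). There were 3 in a TAD in 3D only (10%, 3.46 to 25.6, background 10.5%), 0 in 2D only (up to 11.4%, background 3.73%) and 2 in neither list (6.67%, 1.85 to 21.3, background 12.2%). Each background lay within its interval, and the groups within the list are too small to be read against it. Among the 8 genes that supply the cofactors, 7 kept their TAD, including Ugdh, which makes UDP-glucuronic acid, and Gclc, the limiting enzyme of glutathione synthesis. The exception was Papss1, a PAPS synthase, in a TAD of 1160 kb in 2D and 400 kb in 3D. Of 13 other conjugating enzymes 5 kept their TAD and 6 had one of other extent, such as the arylamine acetyltransferases Nat1 and Nat2 (520 kb in 2D, 2640 kb in 3D) and the bile acid conjugating enzyme Baat (1080 kb in 2D, 160 kb in 3D). Gstz1 was in a TAD in 3D only, and Tpmt in neither list.

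Of the 6 regulators, the xenobiotic receptor gene Nr1i3 and the bile acid receptor gene Nr1h4 kept their TADs. The aryl hydrocarbon receptor gene Ahr lay in a TAD of 400 kb in 2D but 720 kb in 3D. Nfe2l2, which codes for the antioxidant response factor, lay in one of 120 kb in 2D but 240 kb in 3D. Keap1, which codes for its inhibitor, was in a TAD in 3D only and Nr1i2 in neither list. Among the 3 conjugate exporters, Abcc3 lay in a TAD of 240 kb in 2D but 480 kb in 3D, Abcg2 in one of 1680 kb in 2D but 240 kb in 3D, and Abcc2 was in a TAD in 3D only.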

How the data were processed

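In situ Hi-C was run on 2 samples of AML12 cells per culture. The deposited values are TAD start and end positions, 1 list of 4467 TADs for 2D and 1 of 4355 for 3D. Per the study's methods, the authors aligned reads to mm10 in rounds of growing length (Bowtie 2, version 2.2.9), required a mapping quality over 30 of both ends, removed same-fragment and dangling pairs, combined the replicates, normalized matrices of 40 kb by ICE, equalized the contacts of each chromosome between the cultures and called TADs with Armatus (version 1.0, gamma 0.8). The lists carry no read counts. Contact matrices and RNA-seq were not analysed here.

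Genes came from GENCODE release M21 and sequence from GRCm38, the build that mm10 names, over 21 chromosomes. A border is any distinct TAD start or end, and positions are 1-based. Biopython (1.88), numba (0.67.0), numpy (2.4.6) and scipy (1.17.1) were used under Python 3.11.15, with matplotlib (3.10.9) for drawing. The placement measures were tested on simulated data of 3000 TADs, and 7 of 7 returned the known value. The 30-mers were counted on both strands at all positions of each locus and of every 100th bin of the autosomes.

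With 1 list per culture no test was made. The members, the lists and the alternatives were chosen with earlier results of these data known. Every member was accounted for, with full values for clusters, for members whose TAD was not shared or that a border crossed, and for those in the largest and smallest TADs. Pathway genes came from a fixed list of 30. Alternatives changed the position that places a gene, the distances and sizes used, the definition of a border or a shared TAD, and the unit counted. Some items of the Ugt1a and Gstm loci are not reported here.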

Additional observations from a re-analysis of the deposited data

How the results depend on the processing

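Of 37 other settings, 27 left a count within a set ratio of its main value or a median within its interval, and 10 did not. The ratio is wide. Among the 27 are the members with a shared TAD, 21 in the main setting, 15 with ends within 0 kb and 16 by gene midpoint. The 27 also include the 2D median TAD size with each TAD counted once, which fell from 1300 to 300 kb, still within its wide interval. With TADs of at least 200 kb, 34 members lay inside a TAD in 2D. The share of all genes at this size limit was not computed, so the count has no background. Counting each distinct 2D TAD once left 7 shared TADs. Members with a start within 40 kb of a border numbered 14 in 2D and 11 in 3D, more than those with a border in the gene body. Where only positions at which 2 TADs meet counted as borders, the median distance was 246 kb (2D) or 244 kb (3D), and 2 borders lay inside clusters in 3D. That distance was not computed for all genes. No border inside a cluster was shared at 0 kb (0 in 2D and 0 in 3D), and 2 of the 3D list were shared within 80 kb. Another 6 settings were chosen after seeing the data. With Ugt1a counted as 1 locus, a border crossed 1 locus in 2D and 2 in 3D. Without the Ugt2 with Sult1 and the Sult2a clusters, the medians in 2D were 160 kb for TAD size and 55 kb for the distance. Joining members within 200 or 1000 kb gave the same 11 clusters by number. Counting TADs or loci changes the unit, and a start near a border is another measure than a border in the gene body. The cause of the other shifts was not tested.

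No paired analysis was possible because the replicates were combined before TADs were called, and for the same reason no value without a replicate was computed. Differences of 40 kb equal 1 bin, and the depth behind each border is unknown.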

Other observations

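Pseudogenes of the arrays lay beside the coding copies. The annotation lists 8 autosomal pseudogenes whose symbols begin as those of the members do. The unprocessed pseudogenes Sult2a-ps1, Sult2a-ps2, Sult2a-ps3 and Sult2a-ps4 lay in the TAD of 2880 kb that held the 8 Sult2a genes in both lists. Sult1c2-ps1 and Sult1c2-ps2 lay with Sult1c2 in the TAD of 280 kb in 2D, apart from Sult1c1, and with both genes in the TAD of 400 kb in 3D. The 2 processed copies lay far from the arrays, Gstm2-ps1 on chromosome 5 in a TAD without members and Gstp-ps on chromosome 1 in no TAD of either list.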
